A study of Bos taurus with 10 samples.

Results

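The genes described here code for 3 fibulins (FBLN1, FBLN2 and FBLN5), elastin (ELN), fibronectin (FN1), the elastic fibre protein MFAP4 and matrix Gla protein (MGP). They were taken by current gene symbol from the named elements of a bovine cDNA microarray. All 7 genes asked for were found, on 9 of the 5472 named elements, among 4366 named genes. FN1 and ELN had 2 elements each and the other 5 genes had 1 each. Cattle at peak lactation supplied total RNA of liver, mammary gland and 3 adipose depots: mesenteric and omental, which lie inside the abdomen and are called visceral here, and subcutaneous. Each of the 5 tissues was 1 RNA sample that went onto 2 arrays, in Cy3 on one and in Cy5 on the other. The opposite dye carried a reference RNA pooled from tissues, the same on every array, and the labels name no treatment, breed or age and no number of animals behind a sample.

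Fibronectin circulates in plasma as a soluble protein made by hepatocytes, and fibroblasts and other cells assemble a cellular form into fibrils at their surface through integrins. Elastin is secreted as a soluble monomer, deposited on microfibrils and crosslinked by lysyl oxidases into fibres that let vessels and connective tissue recoil. Fibulins are secreted proteins with calcium-binding repeats: FBLN5 is needed for elastic fibre assembly, and FBLN1 and FBLN2 bind fibronectin and basement membrane proteins. MFAP4 binds elastin and fibrillin, and MGP is a small vitamin K dependent protein that restrains calcification and binds bone morphogenetic proteins.

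A level is the log2 ratio of tissue over reference minus the array's median, so 0 stands for the ratio of the median spot, and levels of different genes are not compared. Each level is the mean of the 2 arrays of a tissue, and ± is the distance of either array from that mean, called the dye orientation error. Both arrays carried the same RNA, so the spread between animals is unknown and differences carry no p-value. A difference passed the size rule where its mean was at least 1 log2 unit (2-fold) in size and had the same sign in both dye orientations. The direction of the ratio is likely rather than stated, and with the opposite direction every level and difference changes sign. Every gene name depends on a print layout that had to be reconstructed. In bulk tissue, fewer cells of a type and less RNA per cell cannot be told apart.

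Between 15970 and 16245 of 16416 spots per array had a value, and all 20 spots of each of the 9 elements did. The labelled tissues were set against marker lists. In liver, 3 of 4 measured hepatocyte markers had their highest level of the 5 tissues in both dye orientations, and in mammary gland 5 of 7 measured mammary epithelial markers did. The other hepatocyte marker, APOA1, was highest in subcutaneous adipose tissue (1.86 ± 0.21), with liver at 0.85 ± 0.37. Only 4 of 13 adipocyte markers were named on the array (LIPE, CEBPA, CAV1 and RBP4), with a median level of 1.38 in mesenteric, 1.43 in omental and -0.45 in subcutaneous adipose tissue. The 11 measured myeloid markers had a median level of 2.72 in the subcutaneous sample against 1.31 and 1.73 in the mesenteric and omental samples. That list was split: against the visceral depots 7 of 11 genes passed the size rule as higher and 1 as lower, where 6.23% and 3.72% of all genes did. C1QC stood at 0.79 ± 0.55 in the subcutaneous sample, against 2.26 ± 0.97 in the mesenteric and 2.07 ± 0.80 in the omental sample. The subcutaneous sample thus stood apart from the visceral depots by the medians of both lists, and the part of these cells in its differences was not tested.

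Of the 7 genes, 6 had their highest level in mesenteric adipose tissue in both dye orientations: FBLN1, FBLN5, ELN, FN1, MFAP4 and MGP. Of all 4307 genes with a value on every array, 9.38% did so. FBLN2 was highest in liver, as were 17.4% of all genes, and lowest in mesenteric adipose tissue, the lowest tissue for 6.5% of all genes. FBLN1, FBLN5, ELN and MGP were lowest in liver, the lowest tissue for 16.8% of all genes, and FN1 was lowest in mammary gland, the lowest tissue for 15.5%. Without centring the arrays, 3 genes (FBLN1, MFAP4 and MGP) remained highest in mesenteric adipose tissue in both orientations, and after quantile normalisation 5 did, all but ELN.

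**Figure D1:**
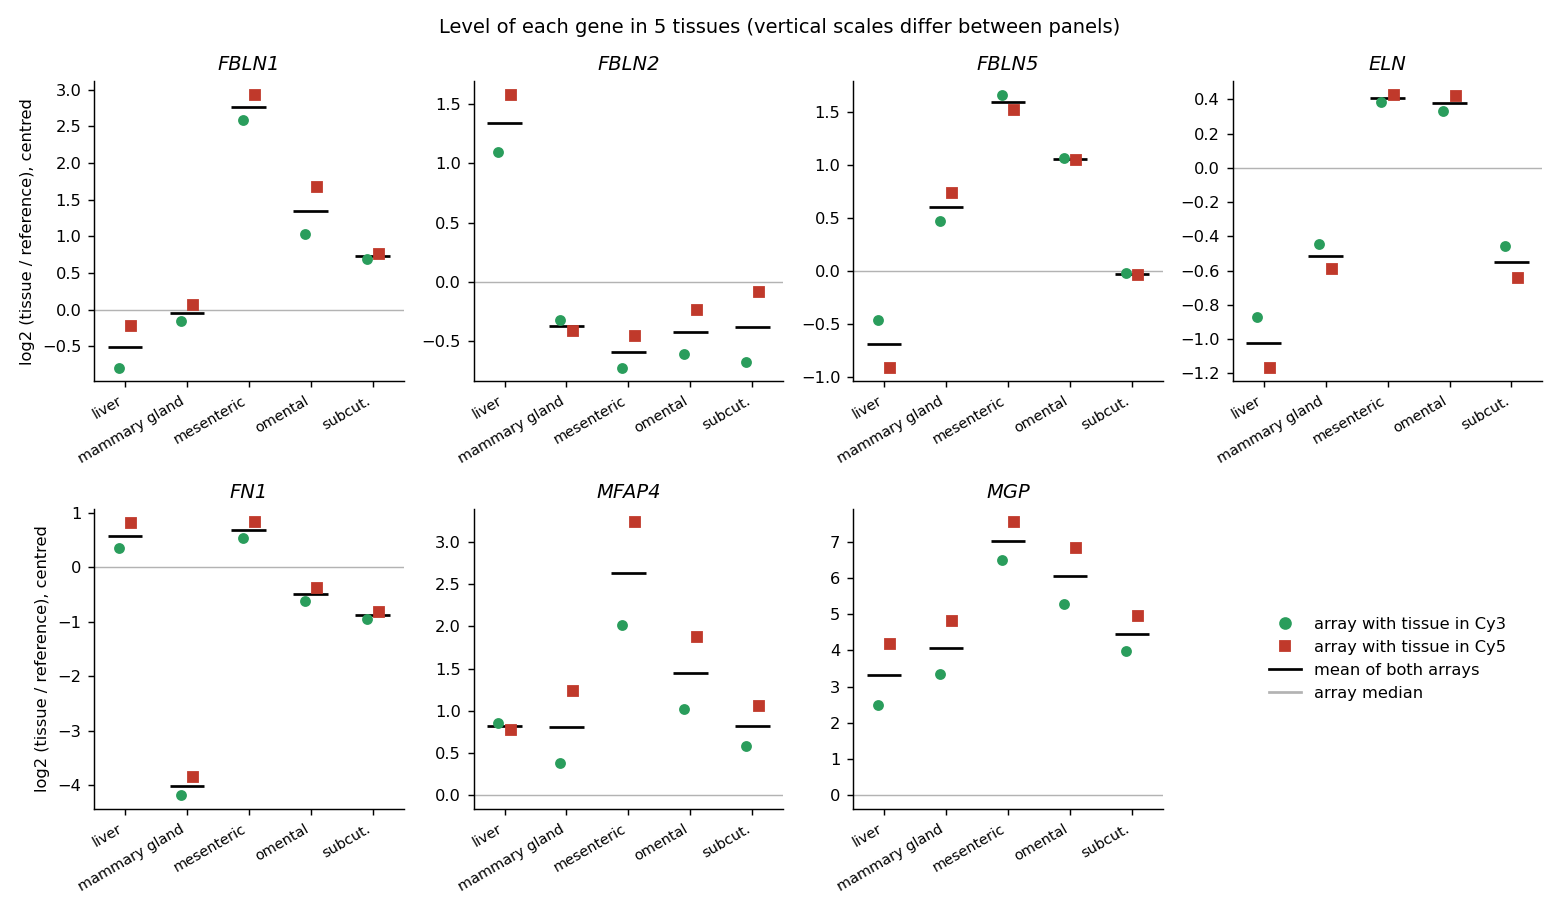
Level (log2 of tissue over reference, centred on the array median) of each of the 7 genes in the 5 tissues; circles are the arrays with the tissue in Cy3, squares those with the tissue in Cy5, and bars their mean. FN1 drops to -4.02 in mammary gland, MGP lies above the array median everywhere and peaks at 7.01 in mesenteric adipose tissue, and FBLN2 alone is highest in liver.

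FN1, the fibronectin gene, had the widest range of the 7 genes over tissues, 4.70 log2 units, against a median range of 0.73 over all genes (place 37 of 4307). Its levels on the Cy3 and Cy5 arrays were 0.36 and 0.80 in liver, 0.54 and 0.82 in mesenteric, -0.63 and -0.38 in omental and -0.95 and -0.82 in subcutaneous adipose tissue. In mammary gland both arrays were far lower, at -4.19 and -3.85. No other tissue overlapped that pair, and their mean of -4.02 ± 0.17 lay 16.2-fold below the ratio of the median spot. Without centring it stood at -3.47. Mesenteric adipose tissue and liver, the 2 highest tissues, differed by 0.10 ± 0.08, with overlapping arrays. Liver exceeded omental adipose tissue by 1.08 ± 0.10, and omental exceeded subcutaneous adipose tissue by 0.38 ± 0.06, a step that turned to -0.09 without centring. The step from subcutaneous adipose tissue down to mammary gland was 3.14 ± 0.10 log2 units (8.81-fold). Both elements of FN1 showed this order, with mammary gland levels of -3.97 ± 0.17 and -4.07 ± 0.17 and mesenteric levels of 0.69 ± 0.13 and 0.67 ± 0.15. Element names come from the layout where clones of a gene agreed best, so this likeness is no separate evidence.

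MGP, the calcification inhibitor, was at least 2-fold above the ratio of the median spot in all 5 tissues, which held for 0.464% of all genes. Its Cy3 and Cy5 arrays gave 6.49 and 7.53 in mesenteric, 5.27 and 6.82 in omental and 3.98 and 4.95 in subcutaneous adipose tissue. They gave 3.34 and 4.80 in mammary gland and 2.49 and 4.17 in liver. The Cy5 array was the higher in every tissue, and with arrays of both orientations pooled 3 of the 4 neighbouring pairs overlapped, all but omental and subcutaneous adipose tissue. Within each orientation the order of the tissues was the same. Mesenteric exceeded omental adipose tissue by 0.96 ± 0.25 log2 units, short of the size rule, a step of 0.26 after quantile normalisation and of 1.22 without the Cy5 arrays. Omental exceeded subcutaneous adipose tissue by 1.58 ± 0.29, subcutaneous adipose tissue exceeded mammary gland by 0.39 ± 0.24, and mammary gland exceeded liver by 0.74 ± 0.11. After quantile normalisation the subcutaneous and mammary gland samples changed places (mammary gland minus subcutaneous, 0.16), and liver minus mammary gland passed the size rule at -1.51.

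FBLN1, a fibulin that binds fibronectin, fell into a like order, with a range of 3.27 log2 units (place 118). Its arrays stood at 2.59 and 2.93 in mesenteric, 1.03 and 1.67 in omental and 0.69 and 0.76 in subcutaneous adipose tissue. In mammary gland they stood at -0.15 and 0.07, and in liver at -0.79 and -0.23. None of the 5 tissues overlapped. The 4 steps down this order were 1.41 ± 0.15, 0.62 ± 0.29, 0.77 ± 0.08 and 0.47 ± 0.17, so the largest lay between the visceral depots. Without centring the omental and subcutaneous samples stood 0.15 apart, and the subcutaneous sample stood 1.23 above mammary gland.

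MFAP4, which binds elastin and microfibrils, had its highest means in the visceral depots. Its arrays stood at 2.02 and 3.23 in mesenteric and 1.02 and 1.88 in omental adipose tissue. They stood at 0.58 and 1.05 in subcutaneous adipose tissue, 0.86 and 0.78 in liver and 0.38 and 1.23 in mammary gland. Those last 3 tissues had means of 0.82, 0.82 and 0.81, and their differences (0.00 ± 0.28 and 0.01 ± 0.46) lay within the dye orientation error. The Cy3 array of omental adipose tissue lay below the Cy5 arrays of subcutaneous adipose tissue and mammary gland, so that only mesenteric adipose tissue lay clear of those 3 tissues. Omental exceeded subcutaneous adipose tissue by 0.63, and by 0.16 without centring. MFAP4 also had the largest gap between duplicate spots of an array, 0.55, against 0.11 to 0.41 for the other 8 elements.

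FBLN5, the fibulin of elastic fibre assembly, held subcutaneous adipose tissue in another place. Its arrays stood at 1.67 and 1.52 in mesenteric and 1.07 and 1.05 in omental adipose tissue, then at 0.48 and 0.74 in mammary gland. Subcutaneous adipose tissue followed at -0.02 and -0.04, and liver at -0.46 and -0.91. No tissues overlapped, and mammary gland lay 0.64 ± 0.14 above subcutaneous adipose tissue, whereas for FBLN1 it lay 0.77 ± 0.08 below it. Without centring, that FBLN5 difference shrank to 0.18, and the one between mesenteric and omental adipose tissue from 0.53 to 0.22.

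The 2 elements of ELN disagreed in size. The first stood at 1.39 ± 0.21 in mesenteric and 1.32 ± 0.28 in omental adipose tissue, and at -0.32 ± 0.13 in subcutaneous adipose tissue, -0.23 ± 0.07 in mammary gland and -0.92 ± 0.17 in liver. Its visceral arrays lay above 1 and all others below 0. The second lay below 0 everywhere, from -0.56 ± 0.19 in omental adipose tissue to -1.12 ± 0.12 in liver, with all of its tissues within 0.56 log2 units. Both placed the visceral depots on top and liver last. ELN as printed elsewhere is the mean of both, and it lies between unlike values: subcutaneous minus visceral adipose was -0.94 ± 0.13 for the mean, -1.68 for the first element alone and -0.21 for the second. Taking single elements was an alternative chosen after seeing the data. Mesenteric and omental adipose tissue differed by 0.03 ± 0.02 in the mean of both elements, a difference that turned to -0.28 without centring.

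**Figure D2:**
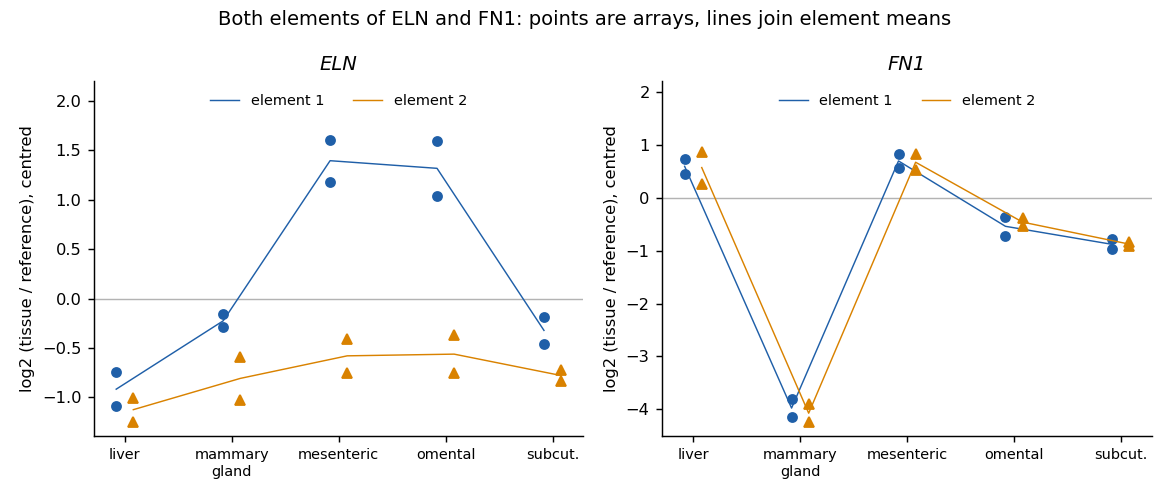
Levels (log2 of tissue over reference, centred) of the 2 elements of ELN and of FN1 in the 5 tissues; each point is an array and lines join the means of an element. The FN1 elements lie on each other, with -3.97 and -4.07 in mammary gland, while the first ELN element reaches 1.39 in mesenteric adipose tissue where the second stays at -0.58. Agreement between clones of a gene was the basis of the layout that names the elements.

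FBLN2, which binds fibronectin and basement membrane proteins, had the reverse pattern. Its arrays stood at 1.10 and 1.58 in liver and below 0 in all other tissues, from -0.72 (Cy3, mesenteric adipose) to -0.09 (Cy5, subcutaneous adipose). Liver did not overlap with any of them, and lay 1.71 ± 0.29 log2 units (3.27-fold) above mammary gland, the next tissue. Mammary gland, subcutaneous and omental adipose tissue were not told apart, with neighbouring differences of 0.01 ± 0.34 and 0.04 ± 0.11. Mesenteric adipose tissue lay 0.17 ± 0.05 below omental adipose tissue. Of the 3 measured genes of the list of hepatic stellate cell and portal fibroblast markers, DES, THY1 and EMILIN1, none was highest in liver, against 17.4% of all genes. EMILIN1 was level between liver (0.47 ± 0.15) and omental adipose tissue (0.47 ± 0.20). The source of FBLN2 within liver was not tested.

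The first comparison set the visceral depots against each other, the pair of tissues with the smallest differences over all genes (SD 0.32 log2 units). FBLN1 was 2.66-fold higher in mesenteric than in omental adipose tissue (1.41 ± 0.15), FN1 2.27-fold (1.18 ± 0.01, from 1.17 and 1.20 in the 2 orientations) and MFAP4 2.26-fold (1.18 ± 0.17). These 3 of 7 genes passed the size rule, which 1.41% of 4340 genes passed, 0.829% as higher in mesenteric adipose tissue. MGP (0.96 ± 0.25) and FBLN5 (0.53 ± 0.06) did not pass but lay at places 43 and 129 of 4340 from the top. ELN (0.03 ± 0.02) and FBLN2 (-0.17 ± 0.05) stood near 0. Dye orientation errors of at least 1 occurred for 38 genes here, against 61 genes past the rule, while those of the 7 genes were at most 0.25. Without centring, FN1 and MFAP4 stood at 0.87 and 0.86 and no longer passed. Of the markers of other cell types, 0 of 6 fibroblast and 0 of 7 smooth muscle and pericyte genes passed the rule, with medians of -0.01 and -0.01. The keratin KRT19, 1 of 4 measured genes on the mesothelial list, was higher in mesenteric adipose tissue at 1.72 ± 0.32. LIPE, 1 of 4 measured adipocyte markers, was higher too (1.14 ± 0.40), while FLT1, 1 of 7 measured endothelial markers, was lower (-1.49 ± 1.16). The rest of these lists did not pass, with medians of 0.26 for the mesothelial list (2 of 4 genes above 0), -0.20 for adipocyte markers (2 of 4) and 0.21 for endothelial markers (4 of 7). The part of these cell types in the differences was not tested.

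**Figure D3:**
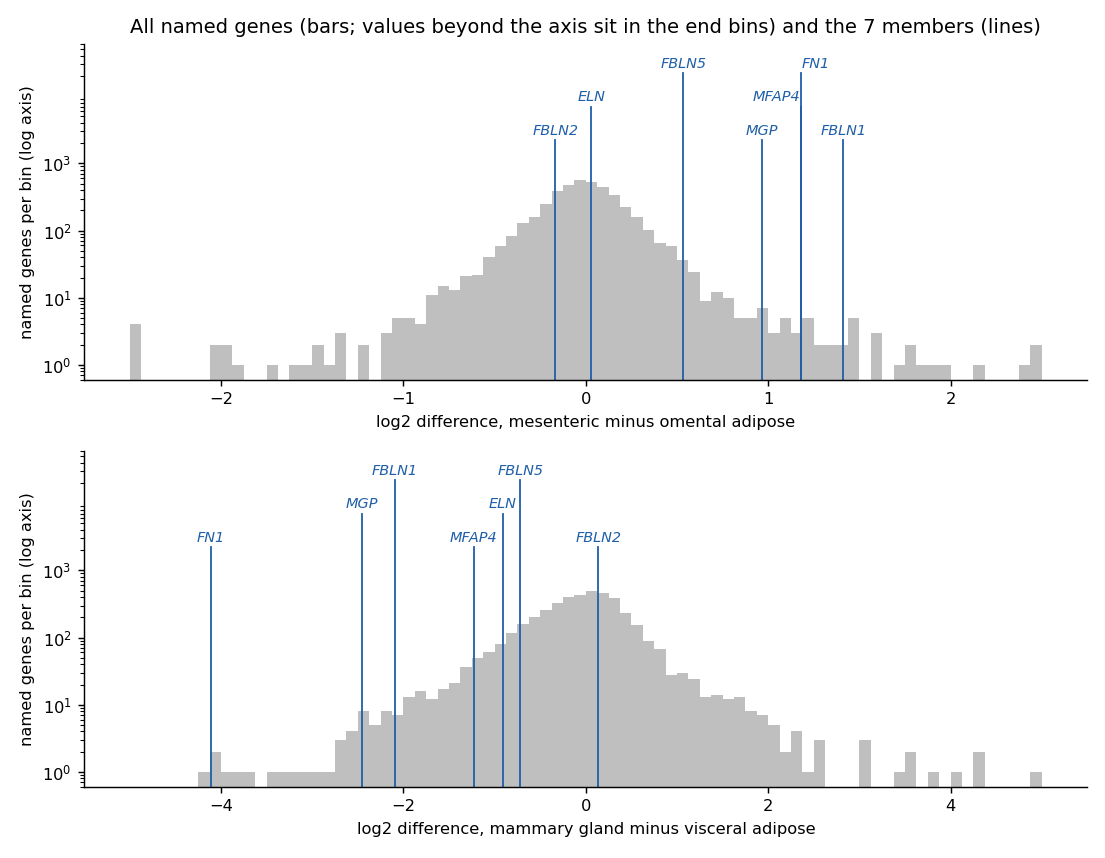
Numbers of named genes (bars, log axis) by log2 difference for mesenteric minus omental adipose (top) and mammary gland minus visceral adipose (bottom), with the 7 genes as lines. FBLN1 at 1.41, FN1 at 1.18 and MFAP4 at 1.18 lie in the thin right tail of the top panel, and FN1 at -4.11 lies at the left edge of the bottom panel.

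The second comparison set subcutaneous against the mean of the visceral depots. MGP was 4.18-fold lower in the subcutaneous sample (-2.06 ± 0.16), FBLN5 2.56-fold (-1.35 ± 0.03), FBLN1 2.51-fold (-1.33 ± 0.21) and MFAP4 2.33-fold (-1.22 ± 0.28). These 4 of 7 genes passed the size rule, as did 9.95% of 4332 genes, 3.72% of them as lower. FN1 (-0.97 ± 0.07) and ELN (-0.94 ± 0.13) missed it narrowly, and both passed after quantile normalisation (-1.12 and -1.09). FBLN2 stood at 0.13 ± 0.13. Without centring, which moved the median of all genes to 0.64, MGP alone of the 7 passed, and FBLN1, FBLN5 and MFAP4 stood at -0.70, -0.73 and -0.59. MFAP4 also fell short (-0.94) without the Cy5 arrays. Smooth muscle and pericyte markers were lower in the same sample for 4 of 7 genes (median -1.05), endothelial markers for 5 of 7 (median -1.17) and fibroblast markers for 1 of 6, with 1 higher (median -0.59). The part of these cell types in the 4 genes was not tested.

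Mammary gland was compared with the adipose depots next. Against the visceral depots, FN1 was 17.3-fold lower in mammary gland (-4.11 ± 0.04), the second most negative difference of 4318 genes. The gene ahead of it was PPP1R16A, and whether the element of that name measures FN1 was not tested. MGP was 5.48-fold lower (-2.46 ± 0.08), FBLN1 4.28-fold (-2.10 ± 0.14) and MFAP4 2.34-fold (-1.23 ± 0.09). These 4 of 7 genes passed, against 9.59% of all genes, 6.3% as lower in mammary gland. ELN (-0.91 ± 0.11), FBLN5 (-0.72 ± 0.17) and FBLN2 (0.14 ± 0.21) did not, and the ELN elements taken alone stood at -1.58 and -0.24. Against subcutaneous adipose tissue only FN1 passed (-3.14 ± 0.10), 1 of 7 genes against 13.9% of 4331 genes, 10.3% as lower in mammary gland. MFAP4 (-0.01 ± 0.19), FBLN2 (0.01 ± 0.34) and ELN (0.03 ± 0.02) lay at 0, and FBLN5 at 0.64 ± 0.14. Without centring FBLN1 passed too (-1.23), and MFAP4, FBLN2 and ELN stood at -0.47, -0.45 and -0.43. The fibroblast markers were lower in mammary gland for 6 of 6 genes against visceral and 5 of 6 against subcutaneous adipose tissue, with medians of -2.26 and -2.32. In the same 2 comparisons endothelial markers were lower for 4 of 7 and 1 of 7 genes, adipocyte markers for 4 of 4 and 2 of 4 (medians -1.76 and -0.56) and myeloid markers for 6 of 11 and 8 of 11. Mammary epithelial markers were higher for 6 of 7 genes in both (medians 3.07 and 3.37), against 3.29% of 4318 genes and 156 of 4331 genes. Smooth muscle and pericyte markers were lower for 2 of 7 genes and higher for 0 against visceral adipose tissue. Against subcutaneous adipose tissue they were higher for 3 of 7 and lower for 0. The part of these cell types in the differences was not tested.

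Liver was compared with all other tissues last. FN1 was 24.2-fold higher in liver than in mammary gland, and FBLN2 3.27-fold, while FBLN5 was 2.45-fold lower (-1.29 ± 0.36), a value that missed the rule on the Cy3 arrays alone (-0.94). These 3 of 7 genes compare with 13.8% of 4325 genes past the rule, 9.34% as higher and 4.44% as lower in liver. Against visceral adipose tissue 5 of 7 genes were lower in liver: MGP (-3.20 ± 0.19, 9.18-fold), FBLN1 (-2.57 ± 0.03), FBLN5 (-2.01 ± 0.18), ELN (-1.41 ± 0.18) and MFAP4 (-1.22 ± 0.56). FBLN2 was higher (1.85 ± 0.08, 3.60-fold) and FN1 did not pass (0.49 ± 0.09). The size rule was passed by 13.4% of 4330 genes in that comparison, 7.41% as higher and 5.96% as lower in liver. MFAP4 fell short there without the Cy5 arrays (-0.66), and ELN stood at -2.27 with its first element alone and at -0.55 with its second. Against subcutaneous adipose tissue, FBLN2 (1.72 ± 0.05) and FN1 (1.46 ± 0.16) were higher in liver, and FBLN1 (-1.24 ± 0.25) and MGP (-1.13 ± 0.35) were lower, 4 of 7 genes against 17.6% of 4347 genes, 7.98% as higher and 9.64% as lower in liver. FBLN1 and MGP fell short without the Cy3 arrays, at -0.99 and -0.78. Without centring FN1 fell short at 0.78, FBLN5 (-1.33) and ELN (-1.15) passed, FBLN1 and MGP stood at -1.91 and -1.81, and FBLN2 stood at 1.04. Fibroblast markers were lower in liver for 6 of 6 genes against visceral (median -3.30) and 6 of 6 against subcutaneous adipose tissue (median -2.82). Smooth muscle and pericyte markers were lower for 5 of 7 genes against visceral adipose tissue (median -1.54), and myeloid markers were lower for 6 of 11 and higher for 3 of 11 against subcutaneous adipose tissue. Hepatocyte markers were higher in liver for 3 of 4 genes in each comparison. The other, APOA1, was lower in liver than in subcutaneous adipose tissue (-1.01 ± 0.15). The part of these cell types in the differences was not tested. All comparisons share samples, so their agreement is no separate evidence.

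**Figure D4:**
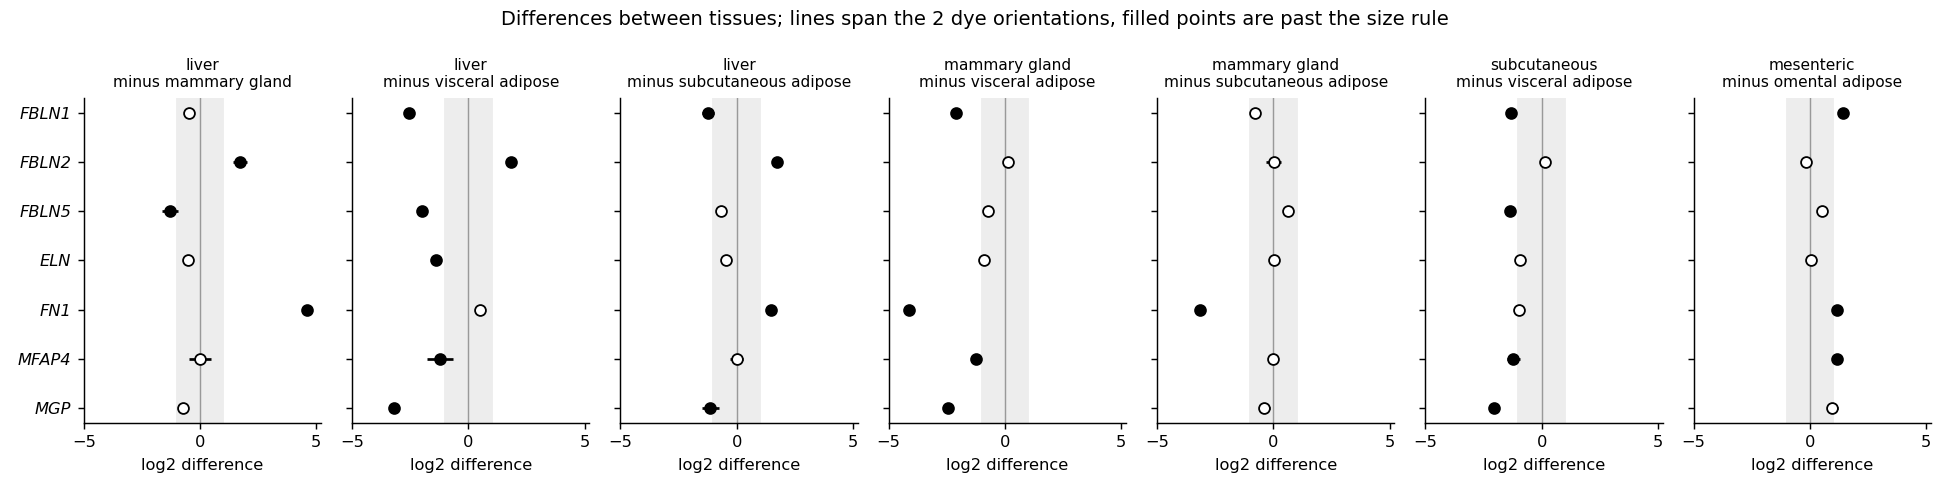
Log2 differences of the 7 genes in the 7 comparisons of tissues; points are means of both dye orientations, lines span the 2 orientations, filled points pass the size rule and the grey band marks less than 1 log2 unit. FN1 reaches 4.60 for liver minus mammary gland and -4.11 for mammary gland minus visceral adipose. FBLN2 alone passes the size rule as higher in liver in every comparison with liver.

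Genes that work with these proteins were counted by list. Of 24 elastic fibre partners 5 were measured, and 0 passed between mesenteric and omental adipose tissue (median -0.11), where 1.41% of all genes did. MFAP2, a microfibril protein, was lower in liver (-1.31 ± 0.23) and in mammary gland (-1.19 ± 0.10) than in visceral adipose tissue, and LOXL1, a lysyl oxidase that crosslinks elastin, was lower in mammary gland (-1.09 ± 0.16). These were 1 of 5 partners in the first and 2 of 5 in the second comparison, against 5.96% and 6.3% of all genes. MFAP2 had its levels in the order 1.89 ± 0.19 in mesenteric, 1.49 ± 0.02 in omental, 0.70 ± 0.06 in subcutaneous adipose tissue, 0.50 ± 0.01 in mammary gland and 0.38 ± 0.14 in liver. By its means this was the tissue order of FBLN1 and MGP, but liver minus mammary gland (-0.12 ± 0.13) lay within the dye orientation error.

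Of 15 enzymes and inhibitors of elastin and fibronectin breakdown 8 were measured, and 4 were higher in subcutaneous than in visceral adipose tissue with 0 lower (median 1.36), where 6.23% of all genes were higher. These were the cathepsins CTSS (2.89 ± 0.13), CTSK (2.87 ± 0.44), which degrades elastin, and CTSB (2.14 ± 0.14), and the plasminogen activator PLAU (2.34 ± 0.23). They thus lay opposite to MGP, FBLN5, FBLN1 and MFAP4 in the same comparison. CTSS is also on the myeloid list, of which 7 of 11 genes were higher and 1 lower in that sample. MMP2, a gelatinase, was lower in liver than in visceral adipose tissue (-4.01 ± 0.11), along with TIMP1 (-1.78 ± 0.27), CTSK (-1.69 ± 0.18) and TIMP3 (-1.07 ± 0.01), 4 of 8 genes against 5.96% of all genes.

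Of 21 receptors and partners of fibronectin 10 were measured. SDC2, a heparan sulphate proteoglycan of the cell surface, was higher in liver than in mammary gland (2.40 ± 0.14), visceral (3.23 ± 0.04) and subcutaneous adipose tissue (4.99 ± 0.13). SPARC, a collagen-binding matrix protein, was lower in mammary gland than in visceral (-3.26 ± 0.08) and subcutaneous adipose tissue (-2.20 ± 0.20), as FN1 was. TNC (tenascin C) was lower in mammary gland than in visceral adipose tissue (-2.55 ± 0.44), and SDC4 was higher (1.06 ± 0.00), so 2 of 10 genes were lower and 1 higher there, against 6.3% and 3.29% of all genes. In liver against visceral adipose tissue 4 of 10 genes were lower, as were 5.96% of all genes. They were SPARC (-3.29 ± 0.10), TNC (-1.44 ± 0.13), CCN2 (-1.10 ± 0.015) and the integrin gene ITGB1 (-1.08 ± 0.34). SDC2 and SDC4 (1.79 ± 0.17) were higher, 2 of 10 against 7.41%. In mammary gland against subcutaneous adipose tissue CCN2 (-1.41 ± 0.04) and TGM2 (-1.23 ± 0.38) were lower too. With SPARC these were 3 of 10, against 10.3% of all genes. SDC2 was higher there (2.59 ± 0.27), 1 of 10, against 156 of 4331 genes. None of the 10 passed between mesenteric and omental adipose tissue (median -0.02), where 1.41% of all genes did.

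Collagens and small proteoglycans form the interstitial matrix, and 6 of the 19 on that list were measured. All 6 were lower in mammary gland than in visceral adipose tissue (median -2.47), with COL3A1 at -3.92 ± 0.01 and COL1A2 at -3.84 ± 0.10, and 5 of 6 were lower in liver (median -3.18), against 6.3% and 5.96% of all genes. Between mesenteric and omental adipose tissue 0 of 6 passed, with a median of 0.07, where 3 of the 7 genes described here did. Of all genes 1.41% passed there, so 0 of 6 lay near that share. Of these 6, 3 lay above 0 and 3 below. The difference between the lists was not tested.

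Of 14 genes of vitamin K dependent carboxylation and Gla proteins 4 were measured. VKORC1, the vitamin K epoxide reductase, was higher in liver than in visceral adipose tissue (2.29 ± 0.02), as was PROS1, the anticoagulant protein S (2.12 ± 0.45), the opposite of MGP. Both were higher in liver than in mammary gland too (2.51 ± 0.26 and 2.00 ± 0.12), as was VKORC1L1 (1.69 ± 0.25). These were 2 of 4 genes in the first and 3 of 4 in the second comparison, against 7.41% and 9.34% of all genes. Between mesenteric and omental adipose tissue 0 of 4 passed, against 1.41% of all genes. Of 17 BMP and TGF beta signalling genes 7 were measured. Against visceral adipose tissue 0 of 7 were higher and 3 of 7 lower in liver, where 7.41% and 5.96% of all genes were. The 0 of 7 thus lay near the first share. In mammary gland 1 of 7 was lower than in visceral adipose tissue, against 6.3% of all genes. TGFB3, a TGF beta ligand, was lower in liver (-2.19 ± 0.12) and in mammary gland (-1.78 ± 0.18) than in visceral adipose tissue, and TGFB2 (-1.64 ± 0.02) and the co-receptor TGFBR3 (-1.11 ± 0.08) were lower in liver.

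The genes with the most similar profiles were found by the root mean square difference over the 5 tissues, each profile minus its own mean, among 4306 genes. The nearest gene to FBLN1 was MGP (0.34 log2 units), followed by TGFB3 (0.34) and FAM13A (0.38), against a median of 1.18 over all genes. MGP in turn had FHL1 (0.22), FBLN1 (0.34) and CCDC3 (0.35) as its nearest. FBLN2 was nearest to DNASE1L3 (0.10), PDIA4 (0.10), a folding enzyme of the endoplasmic reticulum, and YTHDC2 (0.11), and the other 6 members lay at places 4004 to 4268 from it. FBLN5 was nearest to MTURN (0.16), GEM (0.21) and TXNIP (0.21). ELN was nearest to TBC1D4 (0.05), CBX6 (0.13) and DYNC1LI2 (0.13), and MFAP4 to PLCB4 (0.20), the endothelial receptor gene CD93 (0.21) and the potassium channel gene KCNJ8 (0.22). These likenesses rest on 5 samples that share a reference.

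FN1 had a nearest profile of another kind. The element named PPP1R16A had levels of 0.69 in liver, -4.04 in mammary gland, 0.76 in mesenteric, -0.52 in omental and -0.80 in subcutaneous adipose tissue, so its profile differed from that of FN1 by 0.06 log2 units, and its level by at most 0.23 on any of the 10 arrays. The next genes, GPX3 (0.71) and C1QA (0.77), were more than 10 times as far. PPP1R16A had 1 element, and a single element can carry a wrong name here. Whether this element measures PPP1R16A or FN1 was not tested.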

How the data were processed

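The study's 10 cDNA arrays each carried 2 dyes. The deposited values are read here as log2 ratios between dyes, since their highest value of 16.61 equals the log2 of 100000. Per the series' design text, 20 ug of RNA was labelled through aminoallyl cDNA and a ScanArray 4000 scanner and GenePix 4.0 gave the spot values. The authors' background correction and normalisation are steps not given in the sources used here, and without channel intensities signal over background is unknown, so the number of arrays limits the precision. Values of 16.61 were set to missing, the sign was turned on each array whose tissue was in Cy3, and each array was centred on its median. For the omental Cy5 array the labels disagree on the dye of the reference, and its dye label was used. After turning, the arrays of a tissue correlated at 0.66 to 0.78 across spots.

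Neighbouring rows are duplicate spots (correlation 0.83 to 0.92) and were averaged. Annotation identifiers at face value gave clones of a gene unrelated profiles (mean cosine 0.01). Table positions in 48 blocks of 171 elements were joined to identifiers in 16 blocks of 528 through 384-well plates, by the layout where clones of a gene agreed best. That layout gave a mean cosine of 0.41 over 638 clone pairs of 475 genes and 0.51 over 620 pairs of 474 genes held out (0.15 and 0.12 for the next different layout). The 218 pairs in which both profiles varied strongly, drawn from search and held-out genes together, had a mean of 0.84 and a median of 0.98. Names of plates 1 to 20 were used, and 5467 of 5472 elements had a current symbol in RefSeq's gene table for ARS-UCD2.0. Elements of a gene were averaged.

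The genes named in the text are the 7 members, list genes past the size rule (up to 6 per list and comparison), and the 3 nearest profiles of each member. The genes of the adipocyte and hepatic stellate lists were named because few were measured, chosen after their values were seen. Members, lists and the layout were chosen with earlier results of these data known. The search and the size rule were run on simulated data. The simulated layout was one of those searched, and changed genes were set beyond the size rule with all others below it. That run cannot show how the names or the rule fare in the real data. Analyses used Python 3.11.15, numpy 2.4.6, pandas 2.3.3 and numba 0.67.0. Alternatives were no centring, quantile normalisation, each dye orientation alone, ceiling values kept, all plates named, medians of elements, a size rule of 1.5 and the omental Cy5 array left out.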

Additional observations from a re-analysis of the deposited data

How the results depend on the processing

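Among 49 differences (7 genes in 7 comparisons), 25 passed the size rule. Of these, 0 changed sign without centring, with quantile normalisation, or in the 28 rerun without the omental Cy5 array. Either dye orientation alone could not turn them, because the size rule asks for the same sign in both. The same holds for mesenteric minus omental adipose tissue without the omental Cy5 array, where the Cy3 arrays alone were used. Medians equal means for genes with 1 or 2 elements. Keeping ceiling values or naming all plates changed no spot or element of the 7 genes, so these settings could not turn a sign either. Without centring 6 no longer passed and 3 others did. With quantile normalisation 0 were lost and 3 gained, without the Cy3 arrays 2 and 3, and without the Cy5 arrays 3 and 1. Keeping ceiling values, naming all plates and taking medians of elements changed none of these 49 calls. Without centring, the genes past the rule among the 7 became 2 for mammary gland minus subcutaneous, 1 for subcutaneous minus visceral and 1 for mesenteric minus omental adipose. All named genes past it became 1538 for liver minus subcutaneous, 1025 for mammary gland minus subcutaneous, 898 for subcutaneous minus visceral and 93 for mesenteric minus omental adipose. The last 2 split into 858 higher and 40 lower and into 19 and 74 (270 and 161, and 36 and 25, with centring). Liver minus subcutaneous split into 164 and 1374 (347 and 419), mammary gland minus subcutaneous into 78 and 947 (156 and 448), mammary gland minus visceral into 186 and 189 (142 and 272) and liver minus mammary gland into 303 and 301 (404 and 192). The median of all genes moved to -0.74, -0.50, 0.64 and -0.33 in the comparisons of liver and mammary gland with subcutaneous, of subcutaneous with visceral and of mesenteric with omental adipose tissue. With either dye orientation alone, the genes past the rule among the 7 for liver minus subcutaneous ran from 2 to 4, and all genes for mesenteric minus omental from 102 to 108. At a size rule of 1.5, the genes among the 7 became 1 for liver minus subcutaneous, 1 for subcutaneous minus visceral and 0 for mesenteric minus omental, and all genes 309, 301 and 410 for liver against mammary gland, visceral and subcutaneous adipose tissue, 171 and 307 for mammary gland against visceral and subcutaneous, 196 for subcutaneous minus visceral and 21 for mesenteric minus omental. The cause of these changes was not tested. No paired analysis was possible because each tissue is 1 RNA sample. In the main setting every difference was taken between arrays of the same dye orientation and then averaged. Without the omental Cy5 array, the omental Cy3 array stood in for it in the comparisons with visceral adipose tissue. With quantile normalisation mammary gland minus visceral split into 165 and 242.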
